A study of Mus musculus with 24 samples.

Results

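Prostaglandins are short-lived lipid signals made from arachidonic acid, which phospholipases release from membranes. The cyclooxygenases (COX) turn arachidonic acid into prostaglandin H, terminal synthases turn that into prostaglandin E or D, and receptors on the cell surface and a degrading enzyme in the cytosol then set how far and how long the signal acts. In the hippocampus COX-2 is known as an activity-regulated enzyme of excitatory neurons, and the pathway as a whole is known for its part in inflammation after seizures. The 10 genes described here cover those steps and were matched to the count table by gene symbol: the cyclooxygenases Ptgs2 (COX-2) and Ptgs1 (COX-1), the prostaglandin E synthases Ptges, Ptges2 and Ptges3, the prostaglandin D synthase Ptgds, the prostaglandin E receptors Ptger2 (EP2) and Ptger4 (EP4), the degrading enzyme Hpgd, and Alox5ap, the 5-lipoxygenase activating protein FLAP of the neighbouring leukotriene branch. All 10 were among the 18647 genes of the count table and among the 18153 genes tested.

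The study followed gene expression in the CA1 region of the mouse hippocampus after pilocarpine-induced status epilepticus (SE), a prolonged seizure used as a model of acquired epilepsy. Adult C57Bl/6N mice, at least 60 days old and weighing at least 20 g, were given 1 mg/kg scopolamine methyl nitrate and, 20 min later, 335 mg/kg pilocarpine hydrochloride under the skin, and 4 mg/kg diazepam was injected 40 min after SE began. Control mice (Ctr) had the same injections with saline in place of pilocarpine, so scopolamine and diazepam were common to all groups, and pilocarpine-injected mice without SE were not used. CA1 was microdissected from slices and its poly-A RNA sequenced in 5 SE groups (6, 12, 24, 36 or 72 h) and 3 control groups (12, 36 or 72 h), with 3 libraries in each of the 8 groups. SE at 12, 36 and 72 h was compared with the controls of the same time. SE at 6 h and 24 h had no control of their own and were both compared with the mean of the same 3 control groups, so these 2 comparisons share all of their controls with each other and with the rest. Time of day was not matched in these 2 comparisons. The labels number replicates without saying that each is a separate animal, and p-values measure the spread between these libraries.

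Library totals ran from 2663936 to 30133731 counts with a median of 13521590, and the smallest belonged to replicate 3 of Ctr 72 h. Levels are given as CPM, counts relative to the library total after TMM scaling, and differences as log2 fold changes with their standard error (s.e.). Markers of CA1 pyramidal cells summed to 359 to 1559 CPM in every library. At 36 h they summed to 751 to 926 CPM after SE against 1456 to 1559 CPM in controls. At 72 h these sums were 359 to 744 CPM against 894 to 1108 CPM, and at 12 h the groups overlapped. The part of this difference in the member values was not tested. Markers of dentate granule cells, which lie outside CA1, summed to 17.5 to 230 CPM in SE 72 h and 5.29 to 15.5 CPM in Ctr 72 h. At 36 h they summed to 20.5 to 90.9 CPM after SE and 13.7 to 20.4 CPM in controls. At 12 h these groups overlapped, with 16.4 to 93.4 CPM after SE and 33.8 to 94.6 CPM in controls. The part of these cells in the member values was likewise not tested. Markers of sensory ganglion, a tissue outside the brain, set some libraries apart. They summed to 2783 CPM in replicate 2 of Ctr 72 h against 69.7 to 177 CPM in the other 8 controls, and to 629 to 1617 CPM in 6 SE libraries. The factor of unwanted variation in the model was largest in that control library, and values without it are given where they move a result. Each library also has a label number, in the ranges 92 to 104, 109 to 122 and 162 to 169, whose meaning the labels do not give. All of Ctr 72 h lay in the last range and none of SE 72 h did. All of SE 24 h lay in the first, which held no control. In those comparisons group and label number range cannot be told apart. In bulk tissue, more cells of a type and more RNA per cell cannot be told apart.

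The start regions of Ptgs2 and Ptges are shown because these were the synthesis enzymes called at the first time point. They were taken from RefSeq on GRCm38.p6, an older build than the GRCm39 used for the counts, and 9 of the 10 genes had an entry. Capitals mark matches to 6 motifs searched on both strands in windows of 250 bases before to 50 bases after the start: the cAMP response element core ACGTCA, the E box CACGTG, the C/EBP palindrome TTGCGCAA, the AP-1 site TGANTCA, the TATA box TATAAA and the GC box GGGCGG. A start here is the start of the RefSeq entry, and where transcription began in these libraries was not tested. In Ptgs2 the window before the start lies at chr1:150099781-150100030 and the first bases of the entry at chr1:150100031-150100060, both on the plus strand. The Ptges window lies at chr2:30903298-30903547 on the minus strand.
Ptgs2, 250 bases before the start: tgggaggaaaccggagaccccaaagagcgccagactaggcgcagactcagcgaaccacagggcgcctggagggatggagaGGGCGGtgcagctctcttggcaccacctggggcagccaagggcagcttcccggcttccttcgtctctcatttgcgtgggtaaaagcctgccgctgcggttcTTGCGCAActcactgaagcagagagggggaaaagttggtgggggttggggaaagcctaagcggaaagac
Ptgs2, first 30 bases: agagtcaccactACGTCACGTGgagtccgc
Ptges, 250 bases before the start: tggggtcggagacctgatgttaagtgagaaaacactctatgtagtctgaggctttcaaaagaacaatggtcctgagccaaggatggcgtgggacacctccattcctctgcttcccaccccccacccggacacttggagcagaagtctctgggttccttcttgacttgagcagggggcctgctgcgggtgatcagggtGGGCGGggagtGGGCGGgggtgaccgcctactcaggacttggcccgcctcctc
In Ptgs2 the response element core, at bases 13 to 18 after the start, shares letters with the E box at bases 17 to 22, and the palindrome lies at bases -69 to -62. The palindrome was rare, in 0.183% of 32851 windows, whereas the response element core was in 7.51%, the E box in 7.15% and the GC box in 35.7%. The capitals in Ptges are a pair of GC boxes. TGANTCA was in 7.81% of windows and, among the 9 genes, in Ptgds alone. TATAAA was in 13.6% of windows and, among the 9, in Hpgd alone, 5 bases after the start. A match is a description of the letters and no evidence of binding.

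Per kilobase of transcript (CPM per kb), the members spanned a wide range of levels in control CA1. Ptgds was the most abundant, at 90.6 ± 81.4 CPM per kb (SD, n = 9 controls), followed by Ptges3 at 36.6 ± 4.80 and Ptges2 at 5.88 ± 1.04. Of the cyclooxygenases, Ptgs1 was at 3.77 ± 1.35 CPM per kb and Ptgs2 at 2.89 ± 2.42 CPM per kb, the latter raised by replicate 3 of Ctr 12 h at 8.94 CPM per kb. Hpgd was at 3.08 ± 0.777 CPM per kb. Ptges at 0.902 ± 0.295, Ptger4 at 0.775 ± 0.220 and Alox5ap at 0.379 ± 0.161 CPM per kb were lower. Ptger2 was lowest, at 0.0675 ± 0.0770 CPM per kb, from no more than 10 counts in any control.

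Some members were called higher after SE at every time point, and none was called lower. A gene was called when its Benjamini-Hochberg adjusted p in edgeR's quasi-likelihood test was at most 0.05 and its log2 fold change at least 0.66 in size. At 6 h 3 of the 10 members were called higher (Ptgs2, Ptges and Ptger4), where 15.8% of all genes tested were. At 12 h the same 3 genes were called, against 13.9% of all genes. At 24 h 6 members were called, against 15% of all genes: Ptgs2, Ptgs1, Ptges, Ptger4, Hpgd and Alox5ap. At 36 h 7 members were called, those 6 and Ptger2, against 12.7% of all genes. At 72 h 5 were called, against 15.2%, and Ptgs2 was no longer one of them. The median log2 fold change of the 10 members was 0.46 in the 6 h comparison, 0.64 in that of 12 h, 1.8 in that of 24 h, 2.01 in that of 36 h and 1.61 in that of 72 h, while that of all genes lay between 0.00 and 0.09.

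**Figure D1:**
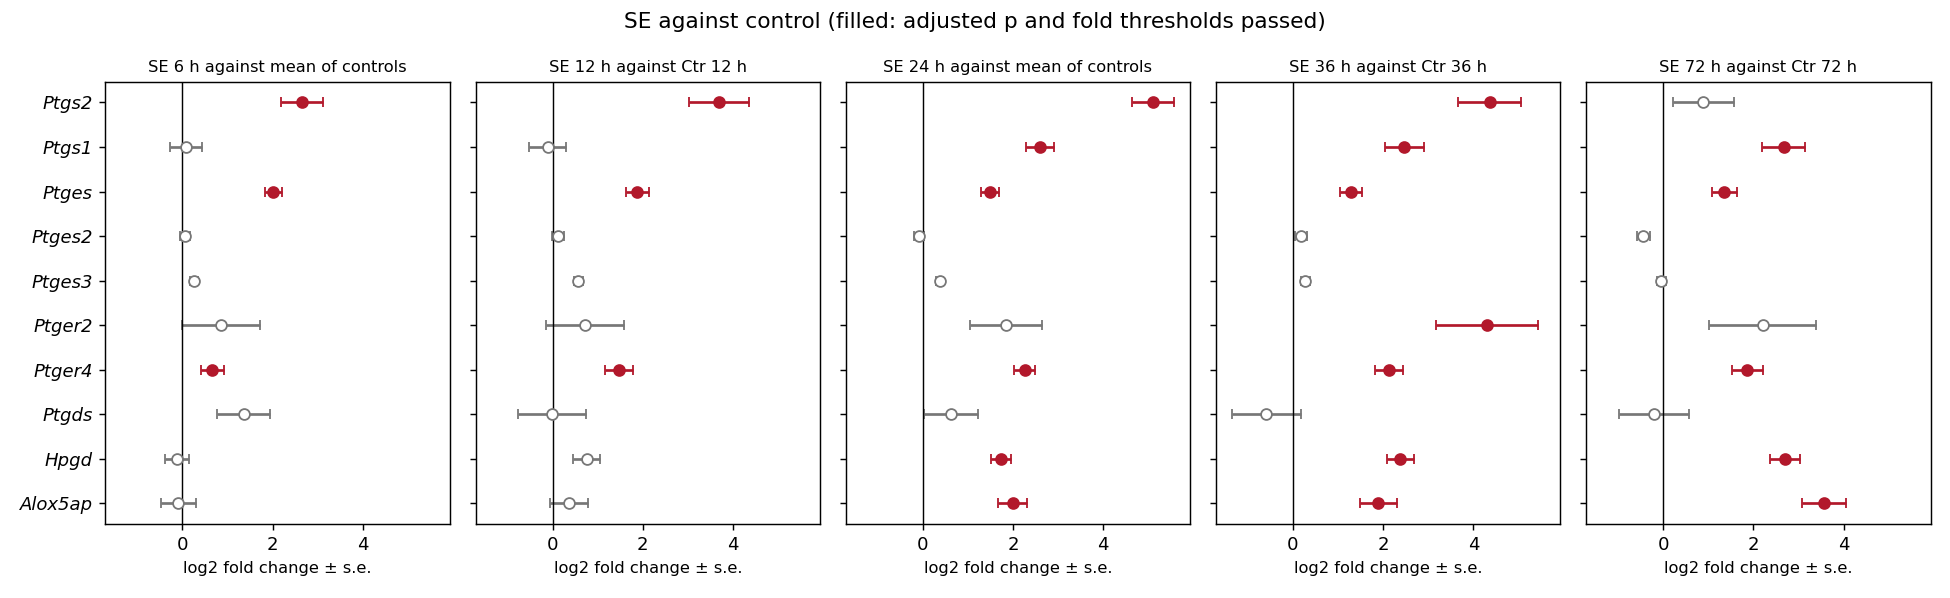
Log2 fold change (horizontal axis, bars ± s.e.) of each member (rows) in SE against control at the 5 time points, with 3 SE libraries each. Filled red points passed both thresholds: Ptgs2, Ptges and Ptger4 at 6 h and 12 h, with Ptgs1, Hpgd and Alox5ap added from 24 h, Ptger2 at 36 h alone, and Ptgs2 open at 72 h (0.89 ± 0.68).

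Between pairs of control groups no member was called in edgeR, where 0.999% of all gene tests over the 3 pairs were. At an unadjusted p under 0.05 there was 1 member for 36 h against 12 h, 2 for 72 h against 12 h and 1 for 72 h against 36 h. DESeq2 and limma-voom also called 0, and a fit of the compared control groups alone called 3. Ptgs1 was in 2 of these pairs, with log2 fold changes of -1.10 at 72 h against 12 h and -1.13 at 72 h against 36 h, neither of which passed the adjusted test.

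Ptgs2 encodes COX-2, the inducible cyclooxygenase (ENSMUSG00000032487.9, chr1:149975194-149983978 on GRCm39, plus strand). It was called at 6, 12, 24 and 36 h, had its highest group mean at 24 h and its highest median at 12 h, and was not called at 72 h. Its level was 65.9, 73.7 and 109 CPM in the 3 SE libraries at 6 h and 227, 311 and 184 CPM at 12 h. At 24 h it was 211, 206 and 955 CPM, at 36 h 120, 238 and 157 CPM, and at 72 h 28, 17.6 and 36.4 CPM. The controls held 6.91, 4.35 and 42.5 CPM at 12 h, 9.35, 7.62 and 8.13 CPM at 36 h, and 16, 12.6 and 16.1 CPM at 72 h. Every SE library from 6 h to 36 h was above all 9 controls. At 72 h the 3 SE libraries were above those of Ctr 72 h but below the highest control, replicate 3 of Ctr 12 h.

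The difference passed the test at 4 time points. Ptgs2 was 6.29-fold higher at 6 h (log2 fold change 2.65, s.e. 0.47, adjusted p = 0.000175) and 12.9-fold higher at 12 h (3.69, s.e. 0.67, adjusted p = 0.000253). It was 34.6-fold higher at 24 h (5.11, s.e. 0.47, adjusted p = 3.83e-08) and 20.5-fold higher at 36 h (4.36, s.e. 0.71, adjusted p = 8.69e-05). At 72 h the log2 fold change was 0.89 (s.e. 0.68, adjusted p = 0.353), which did not pass, and it was 2.40, still uncalled, when the range of the libraries' label numbers replaced the factor of unwanted variation. Single libraries moved these sizes without ending a call. Without replicate 3 of Ctr 12 h the 6 h value was 3.24, the 12 h value 5.43 and the 24 h value 5.70, and without replicate 3 of SE 24 h the last was 3.98.

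The return between 36 h and 72 h was tested directly. Ptgs2 fell by 2.64 on the log2 scale from SE 36 h to SE 72 h (s.e. 0.64, adjusted p = 0.0124), a step at which 4.18% of all genes were called at the threshold of 1 used between SE time points. The call was lost without replicate 2 of SE 36 h or replicate 2 of SE 72 h, with adjusted p of up to 0.0605. The steps from 6 to 12 h, 12 to 24 h and 24 to 36 h did not pass for Ptgs2, and the ranges of its levels at 12, 24 and 36 h overlapped.

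Libraries high in Ptgs2 were not always those high in immediate early genes, which neurons switch on within minutes of strong activity. The 8 immediate early genes summed to 1297 to 5173 CPM at 6 h, 1658 to 4015 CPM at 12 h and 1132 to 6444 CPM at 24 h, against 313 to 1104 CPM in controls, and at 24 h replicate 3 was highest in both. At 36 h they summed to 709 to 1157 CPM with 0 of 8 called, while Ptgs2 was still called. At 72 h they summed to 254 to 684 CPM with 2 of 8 called lower. Replicate 3 of Ctr 12 h, the control highest in Ptgs2, was the lowest control for this sum, at 313 CPM. The part of these genes in the Ptgs2 result was not tested. Counting ignored strand, and Ptgs2os overlaps Ptgs2 on the other strand. Its counts were 0 to 66 a library where Ptgs2 held 43 to 13628.

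**Figure D2:**
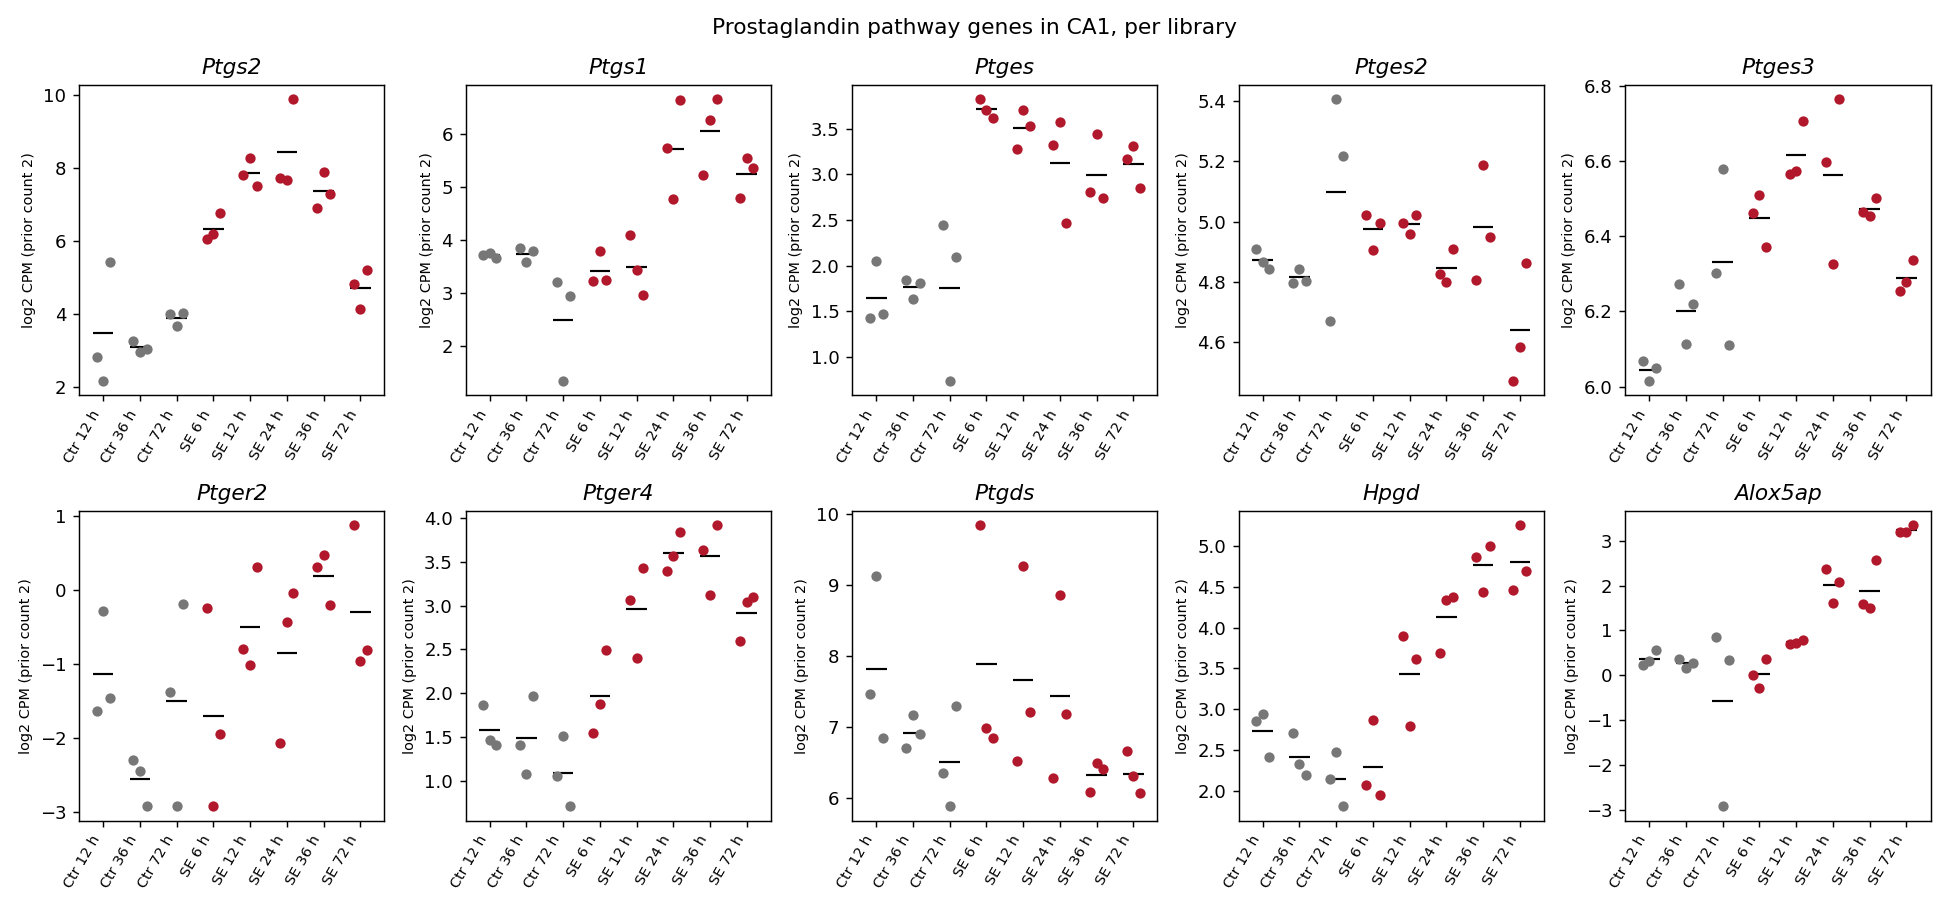
Log2 CPM (with a prior count of 2) of each member in every library, each panel on its own vertical axis, with grey points for the 9 controls, red points for the 15 SE libraries and a line at each group mean. Ptgs2 was highest between 12 h and 36 h, Hpgd stayed high at 72 h, and Ptges2 stayed within 22.1 to 42.3 CPM throughout.

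Ptgs1 encodes COX-1, usually described as the constitutive cyclooxygenase and in brain known mainly from microglia (ENSMUSG00000047250.14, chr2:36120438-36142287, plus strand). It was first called at 24 h and was still called at 72 h. Its level at 6 h was 9.19, 13.6 and 9.34 CPM and at 12 h 16.9, 10.6 and 7.65 CPM, both within or near the control range. At 24 h it was 53.6, 27.3 and 101 CPM, at 36 h 37.3, 77.5 and 102 CPM, and at 72 h 27.8, 46.9 and 41.3 CPM. Controls held 13.1, 13.3 and 12.4 CPM at 12 h, 14.2, 11.8 and 13.6 CPM at 36 h, and 9.03, 2.39 and 7.50 CPM at 72 h. All 9 SE libraries from 24 h on were above all 9 controls, those of Ctr 12 h and Ctr 36 h included, while Ctr 72 h was lowest.

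The log2 fold change of Ptgs1 was 0.07 at 6 h (s.e. 0.35, adjusted p = 0.893) and -0.11 at 12 h (s.e. 0.42, adjusted p = 0.86), neither of which passed. Ptgs1 was 6.06-fold higher at 24 h (2.60, s.e. 0.31, adjusted p = 1.68e-06), 5.55-fold higher at 36 h (2.47, s.e. 0.43, adjusted p = 0.000162) and 6.37-fold higher at 72 h (2.67, s.e. 0.48, adjusted p = 0.000304). The step from SE 12 h to SE 24 h also passed, at 2.35 (s.e. 0.42, adjusted p = 0.00245), a step at which 3.19% of all genes were called. Without replicate 3 of SE 24 h these 24 h values were 2.00 against controls and 1.74 for the step, still called. The step lost its call in a fit of the compared groups only (adjusted p = 0.0718). Gm43621, on the other strand, held 0 to 57 counts a library where Ptgs1 held 14 to 1784.

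The SE effects at different times were compared with each other in the same fit. The effect on Ptgs1 was larger at 36 h than at 12 h by 2.58 (s.e. 0.59, adjusted p = 0.0225), a contrast in which 3.35% of all genes were called, and larger at 72 h than at 12 h by 2.78 (s.e. 0.63, adjusted p = 0.00416), where 18.6% were. For Ptgs2 the effect at 72 h was smaller than at 12 h by a log2 difference of -2.80 (s.e. 0.92, adjusted p = 0.0354) and smaller than at 36 h by -3.47 (s.e. 0.95, adjusted p = 0.0378), where 4.82% were called. The first of these held in 5 of 12 omissions of a library and the second in 3 of 12, so both lie near the threshold. Between 36 h and 12 h the Ptgs2 effects differed by 0.67 with an adjusted p of 0.727. The pair was also set side by side as the ratio of their levels per kilobase within each library. In the controls the Ptgs2 to Ptgs1 ratio was 0.319, 0.197 and 2.07 at 12 h, 0.397, 0.390 and 0.360 at 36 h, and 1.07, 3.19 and 1.30 at 72 h. After SE it was 4.33, 3.27 and 7.07 at 6 h and 8.07, 17.7 and 14.5 at 12 h. It was then 2.38, 4.56 and 5.72 at 24 h, 1.94, 1.86 and 0.932 at 36 h, and 0.610, 0.226 and 0.533 at 72 h. COX-2 transcripts were thus in excess in all 9 SE libraries up to 24 h and COX-1 transcripts in all 3 at 72 h, whose ratios lay below those of Ctr 72 h and within the range of the other controls.

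**Figure D3:**
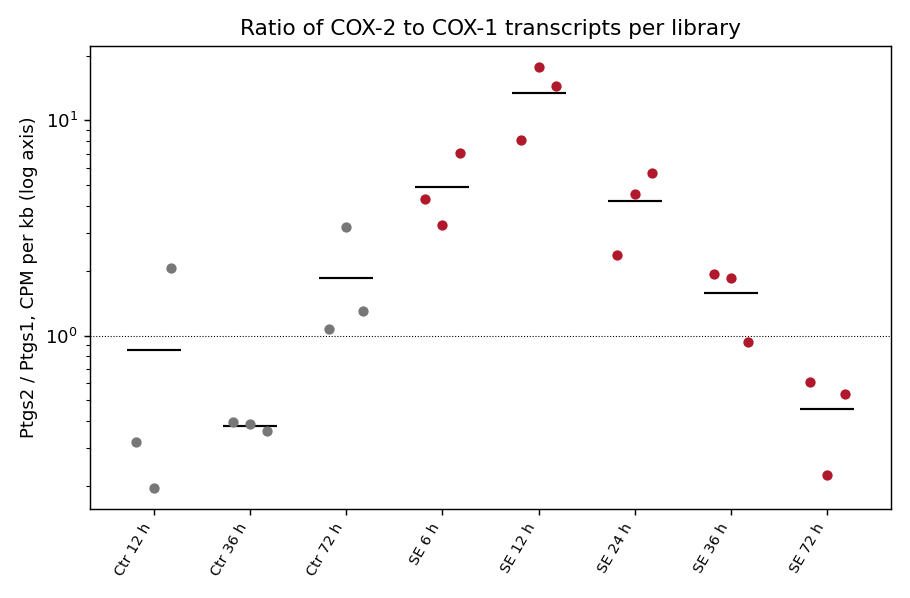
Ratio of Ptgs2 to Ptgs1, each as CPM per kb, in every library (log axis), with controls in grey, SE in red, lines at the group means and a dotted line at 1. The ratio was highest at 12 h after SE (8.07 to 17.7) and under 1 in all 3 libraries at 72 h.

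Ptges encodes microsomal prostaglandin E synthase-1, the inducible terminal enzyme that is often coupled to COX-2 (ENSMUSG00000050737.14, chr2:30779483-30820196, minus strand). It was called higher at all 5 time points. Its level after SE was 14.1, 12.9 and 12.2 CPM at 6 h, 9.59, 13 and 11.4 CPM at 12 h, and 9.88, 11.8 and 5.40 CPM at 24 h. At 36 h it was 6.89, 10.7 and 6.55 CPM and at 72 h 8.88, 9.82 and 7.06 CPM. Controls held 2.56, 4.01 and 2.63 CPM at 12 h, 3.45, 2.97 and 3.37 CPM at 36 h, and 5.32, 1.53 and 4.12 CPM at 72 h. Every one of the 15 SE libraries was above every control.

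Ptges was 4.04-fold higher at 6 h (log2 fold change 2.01, s.e. 0.19, adjusted p = 1.16e-07), 3.68-fold at 12 h (1.88, s.e. 0.25, adjusted p = 1.25e-05) and 2.81-fold at 24 h (1.49, s.e. 0.19, adjusted p = 4.66e-06). It remained 2.44-fold higher at 36 h (1.29, s.e. 0.25, adjusted p = 0.000595) and 2.56-fold at 72 h (1.36, s.e. 0.28, adjusted p = 0.00105). No step between neighbouring SE time points passed for Ptges. At 72 h the log2 fold change was 0.81 (adjusted p = 0.041) without replicate 2 of Ctr 72 h, and 0.80 (adjusted p = 0.342) when the range of the libraries' label numbers replaced the factor of unwanted variation, which ended that call.

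The other prostaglandin E synthases were called at no time point. Ptges2, microsomal synthase-2 (ENSMUSG00000026820.6, chr2:32285659-32295786, plus strand), lay between 22.1 and 42.3 CPM over all 24 libraries. Its log2 fold change was -0.44 at 72 h (s.e. 0.14, adjusted p = 0.0228), smaller than the size needed for a call, with 22.1, 23.8 and 28.9 CPM after SE and 25.3, 42.3 and 37.1 CPM in Ctr 72 h, which overlap. Without replicate 1 of Ctr 72 h that value was -0.67 (adjusted p = 0.00104), which is a call. Ptges3, the cytosolic synthase better known as the HSP90 co-chaperone p23 (ENSMUSG00000071072.13, chr10:127894816-127913141, plus strand), lay between 64.6 and 109 CPM. It was 94.6, 95.2 and 104 CPM in SE 12 h against 67.0, 64.6 and 66.2 CPM in Ctr 12 h, with no overlap and a log2 fold change of 0.57 (s.e. 0.10, adjusted p = 0.000164). Its values at 6 h (0.26, adjusted p = 0.0155), 24 h (0.38, adjusted p = 0.000796) and 36 h (0.27, adjusted p = 0.0422) also had low p and were likewise below the size needed, and at 72 h it was -0.04 (adjusted p = 0.803).

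Ptgds encodes the lipocalin-type prostaglandin D synthase of leptomeninges, choroid plexus and oligodendrocytes (ENSMUSG00000015090.14, chr2:25352795-25362601, minus strand). It passed at no time point, and single libraries stood far above their groups. After SE its level was 923, 127 and 115 CPM at 6 h, 91.7, 616 and 149 CPM at 12 h, and 77.6, 463 and 146 CPM at 24 h. At 36 h it was 67.9, 90.1 and 84.8 CPM and at 72 h 101, 79.3 and 67.0 CPM. Controls held 177, 560 and 115 CPM at 12 h, 104, 144 and 119 CPM at 36 h, and 81.6, 58.8 and 157 CPM at 72 h. One library was several times higher than the others of its group at 6, 12 and 24 h after SE and in Ctr 12 h, and at 36 h the groups did not overlap, with SE lower (log2 fold change -0.59, s.e. 0.77, adjusted p = 0.6). The log2 fold change at 6 h was 1.36 (s.e. 0.58, adjusted p = 0.0698) and was -0.30 without replicate 1 of SE 6 h. In these 4 high libraries the 7 leptomeninges markers summed to 126 to 231 CPM, within the 57.9 to 345 CPM of all libraries. The 2 choroid plexus markers among the genes tested summed to at most 37.1 CPM anywhere. Markers of oligodendrocytes summed to 5488 to 5792 CPM in SE 6 h, 1378 to 3881 CPM in SE 12 h and 2809 to 6329 CPM in SE 24 h. In Ctr 12 h they summed to 2954 to 4151 CPM. The part of these tissues and cells in the Ptgds values was not tested.

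Ptger4 encodes EP4, a prostaglandin E receptor that raises cAMP (ENSMUSG00000039942.16, chr15:5236142-5273673, minus strand). It was called higher at all 5 time points, at 6 h only just. After SE its level was 2.80, 3.53 and 5.52 CPM at 6 h, 8.25, 5.14 and 10.7 CPM at 12 h, and 10.4, 11.8 and 14.2 CPM at 24 h. At 36 h it was 12.3, 8.59 and 15 CPM and at 72 h 5.92, 8.11 and 8.43 CPM. Controls held 3.50, 2.63 and 2.51 CPM at 12 h, 2.52, 1.98 and 3.78 CPM at 36 h, and 1.94, 2.73 and 1.5 CPM at 72 h. The 12 SE libraries from 12 h on were above all 9 controls, whereas those of 6 h overlapped them.

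Ptger4 was 2.79-fold higher at 12 h (log2 fold change 1.48, s.e. 0.31, adjusted p = 0.000934), 4.79-fold at 24 h (2.26, s.e. 0.23, adjusted p = 2.1e-07), 4.36-fold at 36 h (2.13, s.e. 0.31, adjusted p = 3.28e-05) and 3.65-fold at 72 h (1.87, s.e. 0.35, adjusted p = 0.000496). The call at 12 h was lost when counts were thinned to the smallest library (adjusted p = 0.0654). At 6 h the value of 0.66 (s.e. 0.26, adjusted p = 0.0447) lay at the threshold and was called in 3 of 13 alternatives, and without replicate 3 of SE 6 h it was 0.32 (adjusted p = 0.441). Ttc33 overlaps Ptger4 on the other strand and held 93 to 1025 counts a library against 4 to 270, so reads in the overlap cannot be assigned. The level of Ttc33 was 34.9 ± 5.61 CPM (SD, n = 3) in SE 36 h and 33.0 ± 3.09 CPM in Ctr 36 h, where Ptger4 differed 4.36-fold. At 12 h Ttc33 was lower after SE, at 20.5 ± 5.73 CPM against 34.9 ± 4.10 CPM in Ctr 12 h. In SE 6 h it was at 21.2 ± 3.34 CPM, against 35.1 ± 3.52 CPM over all 9 controls.

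Ptger2 encodes EP2, the other receptor of this kind (ENSMUSG00000037759.7, chr14:45225652-45241277, plus strand), and stood near the limit of detection. Its counts after SE were 9, 0 and 3 at 6 h, 9, 11 and 14 at 12 h, and 1, 14 and 12 at 24 h. At 36 h they were 15, 16 and 13 and at 72 h 29, 4 and 9. Controls held 2, 10 and 6 counts at 12 h, 1, 1 and 0 at 36 h, and 3, 0 and 2 at 72 h. At 36 h SE and control stood clear of each other both as counts and as CPM, and there Ptger2 was called higher in edgeR (log2 fold change 4.30, s.e. 1.13, adjusted p = 0.0063). Only 2 of these 3 SE libraries were above all 9 controls, the lowest at 0.741 CPM and the highest control at 0.750 CPM. Ctr 36 h was itself below Ctr 12 h without overlap (-2.85, unadjusted p = 0.0291 in edgeR). The SE effect at 36 h minus that at 12 h did not pass (adjusted p = 0.169). Summed over the 3 libraries of each group, 44 counts against 2 gave a ratio of 22.8 after scaling to depth, with an exact 95% interval of 5.94 to 194 that covers counting error only. The same ratio was 1.53 (0.84 to 2.88) at 12 h and 3.57 (1.42 to 11.6) at 72 h, where the test did not pass (adjusted p = 0.545 and adjusted p = 0.176). At 72 h every SE count was above every count of Ctr 72 h, but the CPM of the groups overlapped.

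Hpgd encodes 15-hydroxyprostaglandin dehydrogenase, the enzyme that starts the breakdown of prostaglandins (ENSMUSG00000031613.10, chr8:56747543-56774082, plus strand). It was first called at 24 h and was still called at the last time point. After SE its level was 4.08, 7.15 and 3.74 CPM at 6 h, 14.7, 6.83 and 12.1 CPM at 12 h, and 12.7, 20.2 and 20.5 CPM at 24 h. At 36 h it was 29.0, 21.6 and 31.9 CPM and at 72 h 21.8, 38.2 and 25.8 CPM. Controls held 7.10, 7.53 and 5.22 CPM at 12 h, 6.40, 4.91 and 4.44 CPM at 36 h, and 4.30, 5.46 and 3.37 CPM at 72 h. The SE libraries of 24, 36 and 72 h were above all 9 controls, those of 6 h lay within the control range, and at 12 h replicate 2 overlapped it.

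Hpgd was 3.34-fold higher at 24 h (log2 fold change 1.74, s.e. 0.23, adjusted p = 4.83e-06), 5.22-fold at 36 h (2.38, s.e. 0.31, adjusted p = 6.16e-06) and 6.47-fold at 72 h (2.69, s.e. 0.33, adjusted p = 4.84e-06). At 6 h the value was -0.12 (adjusted p = 0.745), and at 12 h 0.75 (s.e. 0.30) just missed the threshold with an adjusted p of 0.0502, and it was called in 4 of 13 alternatives. Without replicate 2 of SE 12 h the 12 h value was 1.03 (adjusted p = 0.0105), a call. The SE effect was larger at 36 h than at 12 h by 1.63 (s.e. 0.42, adjusted p = 0.0364) and larger at 72 h than at 12 h by 1.94 (s.e. 0.44, adjusted p = 0.00437). The step from SE 6 h to SE 12 h was 1.18 (s.e. 0.30, adjusted p = 0.0325), a step at which 1.33% of all genes were called. The first of these 3 differences held in 4 of 13 omissions of a library and the step in 3 of 7, so both lie near the threshold.

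Alox5ap encodes FLAP, which presents arachidonic acid to 5-lipoxygenase and is known from myeloid cells (ENSMUSG00000060063.10, chr5:149196003-149227762, plus strand). It was first called at 24 h and had its highest level at 72 h. After SE its level was 0.879, 0.686 and 1.15 CPM at 6 h, 1.49, 1.52 and 1.59 CPM at 12 h, and 4.99, 2.92 and 4.06 CPM at 24 h. At 36 h it was 2.89, 2.68 and 5.76 CPM and at 72 h 9.05, 8.97 and 10.1 CPM. Controls held 1.04, 1.11 and 1.35 CPM at 12 h, 1.15, 0.992 and 1.07 CPM at 36 h, and 1.69, 0 and 1.12 CPM at 72 h. All SE libraries from 24 h on were above all 9 controls, and the 3 of 72 h were above every other library.

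Alox5ap was 3.98-fold higher at 24 h (log2 fold change 1.99, s.e. 0.32, adjusted p = 5.42e-05) and 3.71-fold at 36 h (1.89, s.e. 0.41, adjusted p = 0.00151). At 72 h the log2 fold change was 3.57 (s.e. 0.49, adjusted p = 1.55e-05). That size turned on the controls, since it was 2.63 without replicate 2 of Ctr 72 h, which held 0 counts, and 4.62 without replicate 1, both called. The values at 6 h (-0.09, adjusted p = 0.886) and 12 h (0.37, adjusted p = 0.513) did not pass. The SE effect was larger at 72 h than at 12 h by 3.20 (s.e. 0.65, adjusted p = 0.00186), and this difference was 2.25 and 4.26 without the same 2 control libraries. The steps from 12 to 24 h (1.37, s.e. 0.40, adjusted p = 0.0361) and from 36 to 72 h (1.23, s.e. 0.38, adjusted p = 0.0431) also passed, although each did so in only 2 of 7 omissions of a library. From 24 to 36 h no member passed, where 0.545% of all genes were called. Gm19719, on the other strand, held 0 to 69 counts a library where Alox5ap held 0 to 207, so the low levels of Alox5ap are uncertain. In SE 72 h Gm19719 was at 0.784 ± 0.291 CPM (SD, n = 3), below the 9.37 ± 0.623 CPM of Alox5ap.

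Markers of microglia, the brain's resident macrophages, were higher late, as were some members. The summed level of 8 microglial markers was 309 to 411 CPM in controls, 213 to 239 CPM at 6 h and 236 to 312 CPM at 12 h, then 419 to 575 CPM at 24 h, 565 to 662 CPM at 36 h and 1216 to 1770 CPM at 72 h. None of the 8 was at 0 in any library. At 6 h 6 were called lower and none higher, and at 12 h 3 were called lower and none higher. At 24 h 2 were called higher and 2 lower, at 36 h 4 higher and 2 lower, and at 72 h 7 higher and none lower. Of all genes tested, 15.8, 13.9, 15, 12.7 and 15.2% were called higher and 6.2, 11.4, 9.24, 8.95 and 4.15% lower at the 5 times in order. Markers of infiltrating leukocytes, 4 of 7 of which were in the table, summed to 3.69 to 27.3 CPM in controls and 40.6 to 48.0 CPM at 72 h. Most of that sum was Ptprc, which microglia also express, with a mean of 34.4 CPM at 72 h, and Ccr2, S100a8 and S100a9 were each at 0 in 6 libraries. Markers of astrocytes summed to 4623 to 5875 CPM in controls and 12627 to 14230 CPM at 72 h, of which Gfap made up a mean of 8150 CPM. Of these 7 markers 3 were called higher at 72 h, while at 24 h 2 were called higher and 4 lower and at 36 h 3 higher and 4 lower. Alox5ap and the microglial sum were both highest at 72 h, and Ptgs1 was highest at 36 h. Ptges was called higher at 6 h and 12 h, and the microglial sum was then below the control range or at its lower end. A sum of 8 markers does not measure the number or state of these cells. Of 8 markers of endothelial and mural cells, 4 were called higher and 1 lower at 6 h and again at 12 h. At 24 h 5 were called higher, at 36 h 3 and at 72 h 2, with 0 lower. The part of these cells in the results was not tested.

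**Figure D4:**
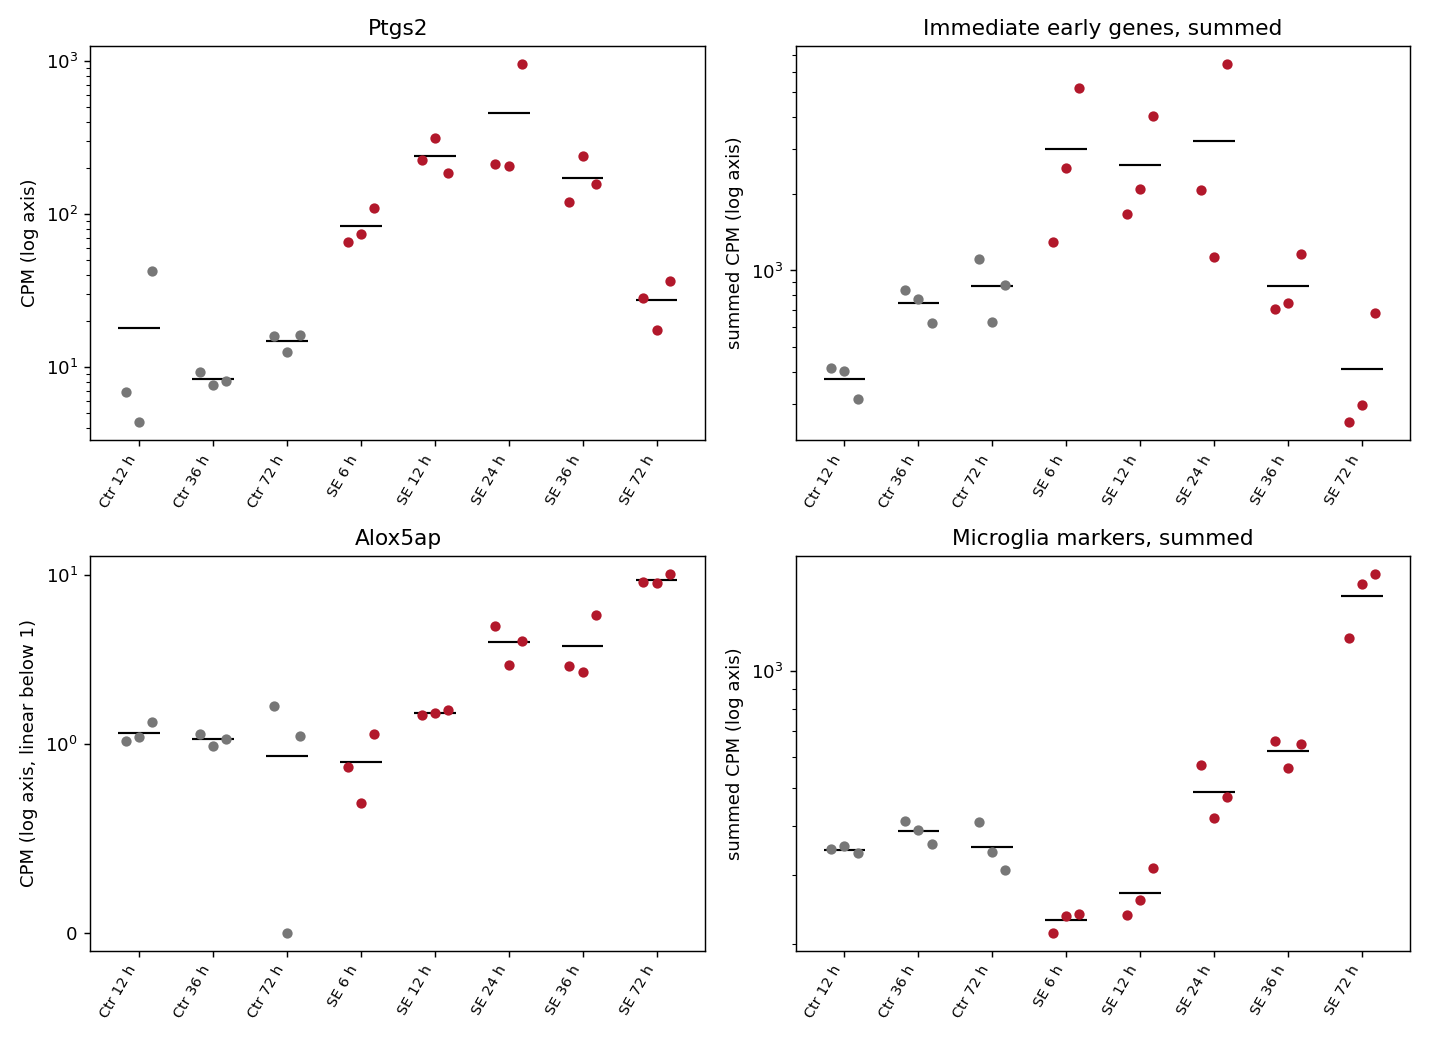
CPM of Ptgs2 beside the summed CPM of the immediate early genes (top) and CPM of Alox5ap beside the summed CPM of the microglial markers (bottom) in every library, controls in grey, SE in red and lines at group means. The axes are logarithmic, that of Alox5ap linear below 1 CPM. The immediate early genes were high from 6 h to 24 h (1132 to 6444 CPM) and the microglial markers were highest at 72 h (1216 to 1770 CPM).

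Other genes of the same steps were counted per list, members included, to be read against the shares of all genes given above for each time and direction. Of the 14 genes for phospholipases and arachidonate release, which supply the cyclooxygenases, 4 were called higher and 0 lower at 6 h, 3 and 1 at 12 h, 3 and 1 at 24 h, 2 and 2 at 36 h, and 4 and 0 at 72 h. With so few genes, such counts as 3 of 14 lie near the share of all genes. Pla2g4a, a cytosolic phospholipase A2 that releases arachidonic acid, was called at all 5 times, with log2 fold changes from 1.68 at 6 h to 2.89 at 72 h. Pla2g5, a secreted phospholipase, was also called higher at all 5 times, with log2 fold changes from 2.54 at 6 h to 4.01 at 12 h. At 12 h its mean was 7.43 CPM after SE and 0.445 CPM in Ctr 12 h (adjusted p = 2.24e-06). Acsl4, which couples arachidonic acid to coenzyme A, was higher at 6 h (1.13, adjusted p = 2.13e-05), 12 h (1.36, adjusted p = 6.02e-05) and 24 h (1.00, adjusted p = 6.4e-05) and not called at 36 h (0.33) or 72 h (-0.05).

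Of the 8 terminal prostanoid synthases, 1 was called higher and 0 lower at 6 h, 1 and 1 at 12 h, 2 and 0 at 24 h, 3 and 0 at 36 h, and 3 and 0 at 72 h. At 12 h this is about the share of all genes. Tbxas1, the thromboxane synthase of platelets and macrophages, was higher at 24 h (1.93, adjusted p = 4.02e-06), 36 h (1.87, adjusted p = 0.00015) and 72 h (3.63, adjusted p = 5.12e-07). Hpgds, the hematopoietic prostaglandin D synthase, was higher at 36 h (1.14, adjusted p = 0.0298) and 72 h (2.15, adjusted p = 0.000626), where Ptgds was not. Prxl2b, a prostamide and prostaglandin F synthase, was called lower at 12 h (-0.69, adjusted p = 0.000515). It was also lower without overlap, but by less than the size needed, at the 3 later times. Its values were -0.44 at 24 h (adjusted p = 0.00414), -0.51 at 36 h (adjusted p = 0.00704) and -0.63 at 72 h (adjusted p = 0.0021).

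Of the 9 prostanoid receptors 8 were tested, with 2 called higher at 12 h and at 36 h, 1 at each of the other times, and none lower. The counts of 1 of 8 are below the share of all genes. Apart from the E receptors described above, Ptgir, the prostacyclin receptor, was called at 12 h (4.12, adjusted p = 0.0176). Its level was 6.66, 1.03 and 1.59 CPM in SE 12 h from 134, 31 and 20 counts, against 2, 2 and 3 counts in Ctr 12 h. The highest library was also the one highest in sensory ganglion markers in that group, at 1281 CPM, and across all 24 libraries Ptgir was highest in replicate 2 of Ctr 72 h, at 15.7 CPM. The part of that tissue in the Ptgir result was not tested.

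Of the 7 genes for prostaglandin breakdown and transport, 1 was called lower at 6 h and 1 at 12 h, and 1 was called higher at 24 h, 2 at 36 h and 3 at 72 h. A count of 1 of 7 lower is near the share of all genes at 12 h. Besides Hpgd, Ptgr1, a prostaglandin reductase that acts after it, was higher at 36 h (2.75, adjusted p = 8.75e-05) and 72 h (2.41, adjusted p = 0.000575), although the 72 h groups overlapped because replicate 2 of Ctr 72 h held 10.2 CPM. Ptgr2, a related reductase, was higher at 72 h (0.75, adjusted p = 0.00485). Cbr1, a carbonyl reductase that can convert prostaglandin E to F, was called lower at 6 h (-0.76, adjusted p = 3.15e-05) and 12 h (-0.91, adjusted p = 2.87e-05). It was also lower without overlap, but by less than the size needed, at the 3 later times. Its values were -0.56 at 24 h (adjusted p = 0.000498), -0.54 at 36 h (adjusted p = 0.00376) and -0.56 at 72 h (adjusted p = 0.00395). Of the 13 lipoxygenase and leukotriene genes 11 were tested, with 2 called higher and 2 lower at 6 h, 0 and 2 at 12 h, 2 and 3 at 24 h, 2 and 1 at 36 h, and 5 and 1 at 72 h. Alox5, the 5-lipoxygenase that FLAP serves, was higher at 24 h (1.36, adjusted p = 0.00276), 36 h (2.13, adjusted p = 0.000321) and 72 h (4.48, adjusted p = 1.14e-06). Alox12b, an epidermal lipoxygenase, was lower at 6 h (-1.43, adjusted p = 0.0142), 12 h (-2.09, adjusted p = 0.00321), 24 h (-1.69, adjusted p = 0.00544) and 36 h (-2.31, adjusted p = 0.00167). Ltb4r1, a leukotriene B receptor, was called higher at 6 h (2.72, adjusted p = 0.00369) and at 72 h (4.68, adjusted p = 0.0134) from 12, 5 and 22 counts against 1, 0 and 1.

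The genes whose pattern was most like each member were found from Pearson's r of log2 CPM over the 24 libraries. These libraries differ in group, depth and label number range, so the values are descriptive. For Ptgs2 they were Bms1 (r = 0.938), the neurotrophin Bdnf (0.934) and Creb3l1 (0.933). For Ptgs1 they were Slc37a2 (0.872), Klk6 (0.865) and the Fc receptor Fcgr1 (0.864). Ptges was most like Aspg (0.912), Ccl9 (0.907) and Ccl3 (0.902), of which the last pair are chemokines. Ptges3 was most like Eif3b (0.911), Copb1 (0.897) and G3bp1 (0.896). Ptger4 was most like Tm9sf3 (0.928), Tm4sf1 (0.926) and Hk3 (0.923), and Hpgd was most like Dap (0.924), Dock1 (0.918) and Adipor1 (0.915). The closest match of any member was between Alox5ap and the thromboxane synthase Tbxas1 (0.983), followed by Ptpn6 (0.970) and Plcg2 (0.95). The nearest genes to the others were Acta1 (0.779) for Ptges2, Sema3d (0.783) for Ptger2 and Cux2 (0.884) for Ptgds.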

How the data were processed

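Reads from unstranded poly-A libraries (TruSeq RNA v2) were trimmed with Trim Galore 0.6.6, mapped with STAR 2.7.8a to GRCm39, sorted with SAMtools 1.10 and counted per gene with HTSeq 0.13.5, per the submitters' processing notes and the study's methods. The deposited values are raw counts per gene, which the authors had filtered for low counts. Counting ignored strand, so overlapping genes on opposite strands could not be separated. Counts of all 24 libraries were fitted in edgeR 4.0.16 (R 4.3.3) with TMM scaling, filterByExpr (18153 of 18647 genes kept), a coefficient for each of the 8 groups and 1 RUVr factor (unwanted variation taken from the residuals), and compared by the quasi-likelihood test. P-values were adjusted by Benjamini-Hochberg over the genes tested. Calls needed an adjusted p of at most 0.05 and a log2 fold change of at least 0.66 in size, or 1 between SE time points. The pipeline was tested on simulated counts. DESeq2 1.42.0, limma-voom (limma 3.58.1), other scalings, filters, covariates, thinned counts and omission of each library were alternatives. Positions came from a GENCODE annotation on GRCm39, to which 18552 of 18647 genes were matched. Intervals cover counting error only. All members were named. Of each pathway list at most 3 further genes were named, those called in a time-matched comparison with the smallest adjusted p, and for each member the 3 genes with the highest r among genes averaging a log2 CPM of 1 or more were taken, of which all or the first were printed. The members, the pathway lists and the marker lists were chosen with earlier results of these data known.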

Additional observations from a re-analysis of the deposited data

Results flagged for a closer look

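In 7 cases the SE effect on a member differed between 2 times by edgeR's test. Of all genes tested, 3.35% were called for 36 h against 12 h, 18.6% for 72 h against 12 h and 4.82% for 72 h against 36 h. These contrasts share SE and control libraries with one another and are not independent. The effect on Ptgs1 was larger at 36 h than at 12 h by 2.58 and larger at 72 h than at 12 h by 2.78 (log2). The effect on Hpgd was larger by 1.63 and 1.94 in the same contrasts. The effect on Alox5ap was larger at 72 h than at 12 h by 3.20. For Ptgs2 the effect at 72 h differed by -2.80 from that at 12 h and by -3.47 from that at 36 h. Leaving out 1 library at a time, the Ptgs1, Hpgd and Alox5ap differences between 72 h and 12 h passed in 12 of 12 omissions. The Ptgs2 difference between 72 h and 12 h passed in 5 of 12, with adjusted p of up to 0.0777, and was -4.54 without replicate 3 of Ctr 12 h. The Ptgs2 difference between 72 h and 36 h passed in 3 of 12, with adjusted p of up to 0.0868. Between 36 h and 12 h the Ptgs1 difference passed in 9 of 13 omissions, with adjusted p of up to 0.0645, and the Hpgd difference in 4 of 13, with adjusted p of up to 0.0946.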

How the results depend on the processing

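The counts of members called against controls stayed within 1.5 times of those reported under 13 alternatives, and leaving out each library in turn gave 3 to 4 calls for SE 12 h, 7 to 7 calls for SE 36 h, 5 to 6 calls for SE 72 h, 2 to 3 calls for SE 6 h and 6 to 7 calls for SE 24 h. The count for steps between neighbouring SE time points, 5 as reported, was 2 with the compared groups only, 3 with no factor of unwanted variation, 2 with the label number range as covariate, 3 with a sensory ganglion score, 2 with thinned counts and 3 to 5 without single libraries. The count for differences of the SE effect, 7 as reported, was 3 with the label number range, 4 with thinned counts and 4 to 9 without single libraries. For pairs of control groups, 0 as reported, it was 3 with the compared groups only and 0 to 0 without single libraries. The causes were not tested. Without replicate 2 of Ctr 72 h the counts were 3 for SE 12 h, 7 for SE 36 h, 5 for SE 72 h, 3 for SE 6 h, 6 for SE 24 h, 5 for steps and 8 for differences of the SE effect.

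Deviations of same-numbered SE and control libraries correlated at -0.20 to 0.18, so they shared no strong deviation. This cannot show whether such libraries were handled together, which the labels do not state. With the replicate number as a replicate block the counts were 3 for SE 12 h, 7 for SE 36 h, 5 for SE 72 h, 3 for SE 6 h, 6 for SE 24 h, 6 for steps and 7 for differences of the SE effect.

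Of the called values, those that lost their call in a comparison against controls were Ptger4 at 12 h (thinned counts), Ptger4 at 6 h (10 of 13 alternatives), and Ptges at 72 h and Alox5ap at 24 h (label number range, adjusted p = 0.342 and adjusted p = 0.051). Hpgd at 12 h was called in 4 alternatives (DESeq2, its size factors in edgeR, library totals and the CPM filter). Ptgds at 6 h was called under the replicate block (1.54, adjusted p = 0.046) and with thinned counts (adjusted p = 0.0438), and Ptgs2 at 72 h with the compared groups only (0.90, adjusted p = 0.0474).

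The 28 values that changed sign were uncalled in the reported fit, where they were up to 1.36 in size (Ptgds at 6 h). With the compared groups only, Alox5ap at 6 h was 0.16 and Ptgds at 12 h 0.08. With thinned counts, Alox5ap at 6 h was 0.16, Ptgds at 12 h 0.01, Ptges2 at 6 h -0.04 and Ptgs1 at 6 h -0.29. Ptgds at 12 h was also 0 with DESeq2 size factors, 0.01 with no factor of unwanted variation, 0.30 with the label number range and 0.21 with the ganglion score. With limma-voom, Ptger2 at 6 h was -0.03 and Ptgs1 at 6 h -0.08, and with library totals Ptges3 at 72 h was 0. Without single libraries, the ranges were -0.43 to 0.26 for Alox5ap at 6 h, -0.46 to 0.06 for Hpgd at 6 h, -1.25 to 0.97 for Ptgds at 12 h, -0.39 to 1.03 for Ptgds at 24 h, -0.30 to 1.83 for Ptgds at 6 h, -0.57 to 0.19 for Ptgds at 72 h, -0.79 to 1.33 for Ptger2 at 6 h, -0.03 to 0.10 for Ptges2 at 6 h, -0.14 to 0.07 for Ptges3 at 72 h, -0.49 to 0.10 for Ptgs1 at 12 h and -0.12 to 0.23 for Ptgs1 at 6 h. Of the remaining values 1221 kept direction and call, 93 lost a call and 16 gained one. Depth limits Ptger2 most, with no more than 29 counts in any library.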
